A study of Mus musculus with 4 samples.

Results

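The chemokines and chemokine receptors of mouse hematopoietic stem and progenitor cells (HSPC) are described here. They were taken by gene symbol alone. Ligands were the symbols that begin with Ccl or Cxcl and a digit, with Cx3cl1 and Xcl1. Receptors were the symbols that begin with Ccr or Cxcr and a digit, with Cx3cr1, Xcr1 and Ccrl2. The rule found 59 genes, 39 ligands and 20 receptors, among the 24015 symbols counted in each library. The series holds 4 RNA-seq libraries of sorted HSPC, 2 from caNIK mice and 2 from control mice. In caNIK mice a mutant of the kinase NIK that TRAF3 cannot target, kept silent at the Rosa locus by a STOP cassette between loxP sites, was released by the Cre recombinase of Vav-iCre mice, which is active in blood cells of all lineages. The labels call the other mice only control, so it is not known here whether they carried either allele, and the sources used do not give the strain, age, sex and number of animals, the tissue or the sort markers.

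Chemokines are small secreted proteins that steer the movement of cells. They are sorted into CC, CXC, C and CX3C classes by the spacing of their first cysteines, and they act through receptors that couple to inhibitory G proteins. In bone marrow, Cxcl12 and its receptor Cxcr4 are known for holding stem cells in their niche. NIK starts non-canonical NF-kB signalling, which in the stroma of lymphoid organs is known for driving the homing chemokines Cxcl12, Cxcl13, Ccl19 and Ccl21.

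Library totals lay between 18574452 and 23162766 counts. Map3k14, the gene of NIK, was counted 3305 and 3989 times in the caNIK libraries and 582 and 588 times in the control libraries (log2 fold change 2.74 ± 0.17, SE, edgeR adjusted p = 0.00023). Of 9 stem and progenitor markers, 1 rose (Ly6a), 3 fell (Cd34, Hlf and Flt3) and 5 did not pass, among them Kit. Their summed level was 1090 and 790 CPM in caNIK libraries and 2480 and 2110 CPM in control libraries. CPM here are counts scaled to a common library size, with the sizes adjusted by TMM. In bulk RNA, fewer cells of a type and less RNA per cell cannot be told apart, which holds for every value below. CPM are not per length, so levels are compared between libraries and not between genes.

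Several ligands and some receptors were higher in caNIK HSPC, and none passed as lower in edgeR's quasi-likelihood test. Of the 39 ligands, 15 had enough reads to be tested, and 8 were higher: Cxcl9, Cxcl10, Cxcl11, Cxcl16, Cx3cl1, Ccl1, Ccl22 and Ccl9. Of the 20 receptors, 17 were tested and 5 were higher: Ccr10, Ccr6, Ccr1, Cx3cr1 and Xcr1. Over all 14191 tested genes, 13.8% were higher and 8.21% lower at an adjusted p under 0.05. No comparison with those shares is drawn, because 6 of the tested ligands and 3 of the tested receptors met the filter on low counts in both caNIK libraries but not in both control libraries. At an unadjusted p under 0.05, 1 ligand (Ccl4) and 1 receptor (Ccr9) were lower. DESeq2 called 0 ligands and 1 receptor (Ccr9) lower, and limma-voom called 0 of each. DESeq2 called 9 receptors in all, against 5 in edgeR.

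**Figure D1:**
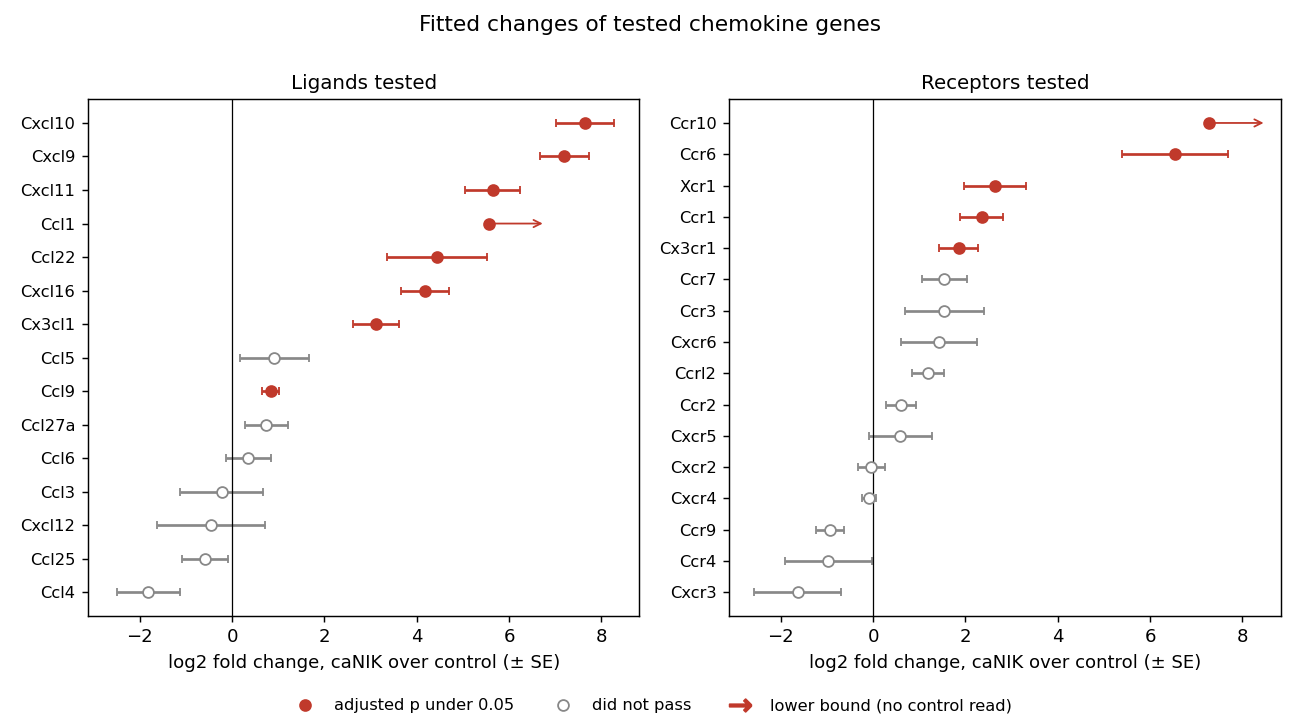
Fitted log2 fold changes, caNIK over control, of the 15 ligands and of 16 receptors that were tested, with standard errors as bars and filled points for an adjusted p under 0.05. Ccl1 and Ccr10 had no control read and stand at their lower bounds, at least 47.1-fold and at least 156-fold, with an arrow. The filled points, 8 ligands and 5 receptors, all lie right of 0.

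The ligands of the receptor CXCR3, which draw activated T cells and NK cells and are known to be induced by interferon and NF-kB, rose together. Cxcl10 lay at 70.3 and 75.3 CPM in the caNIK libraries and at 0.726 and 0.0426 CPM in the control libraries. Cxcl9 lay at 16.5 and 19.2 CPM in the caNIK libraries and at 0.0519 and 0.170 CPM in the control libraries. Cxcl11 lay at 11.5 and 8.0 CPM in the caNIK libraries and at 0.259 and 0.128 CPM in the control libraries. For each of the 3 genes every caNIK library was far above every control library, and in the controls the reads were few, 15 for Cxcl10, 8 for Cxcl11 and 5 for Cxcl9 in total. Log2 fold changes were 7.64 ± 0.64 for Cxcl10, 7.20 ± 0.54 for Cxcl9 and 5.64 ± 0.59 for Cxcl11 (SE, n = 2 libraries per group; edgeR adjusted p = 0.00064, 0.00044 and 0.0013). Without control replicate 1, which held most of its control reads, Cxcl10 lay at 10.53, and without control replicate 2 Cxcl10 lay at 6.64 and Cxcl9 at 8.26 on the same scale. These 3 genes are neighbours in the mouse genome, with 1 other gene between Cxcl9 and Cxcl10 and 0 between Cxcl10 and Cxcl11, counting protein-coding genes and transcribed pseudogenes. The RefSeq gene table, made from C57BL/6J, lists Cxcl11 as a transcribed pseudogene, so in that strain its reads stand for a transcript and not for a working chemokine. Cxcr3, the receptor of these ligands, did not pass, at 4.30 and 0.482 CPM in the caNIK libraries and 10.6 and 4.13 CPM in the control libraries (log2 fold change -1.63 ± 0.94, edgeR adjusted p = 0.27). Its groups overlapped, since caNIK replicate 1 lay above control replicate 2. The log2 fold change of Cxcr3 was -2.16 without control replicate 2 and -3.91 without caNIK replicate 1. It lay at -0.82 without control replicate 1 and at -0.80 without caNIK replicate 2.

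The promoters of some of these genes are shown because the members that rose include known targets of NF-kB and interferon, and because a member with no read shares the same motif. Windows run from 250 bases before to 50 bases after the start site and come from RefSeq (GRCm38.p6; the counts were made on mm9). Of the 59 members, 43 had at least 1 window. The kB motif GGNNNTTCC and the interferon-stimulated response motif TTTCNNTTT (ISRE) were searched on both strands, a match on both strands at the same place being counted once. The kB motif was found in 18.5% of all 32851 windows in the table, the ISRE motif in 10.6%, and both in 1.61%. Capitals mark kB matches, and in Cxcl10 also the ISRE match. No match of one motif overlapped a match of the other in a member's window.
Cxcl9, chr5:92328030-92328329, minus strand: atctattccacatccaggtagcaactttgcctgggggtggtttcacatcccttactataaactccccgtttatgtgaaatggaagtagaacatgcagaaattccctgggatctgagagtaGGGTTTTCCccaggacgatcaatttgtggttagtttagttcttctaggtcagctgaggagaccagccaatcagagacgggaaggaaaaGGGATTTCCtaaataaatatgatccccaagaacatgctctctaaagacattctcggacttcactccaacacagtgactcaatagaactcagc
Cxcl10, chr5:92348840-92349139, minus strand: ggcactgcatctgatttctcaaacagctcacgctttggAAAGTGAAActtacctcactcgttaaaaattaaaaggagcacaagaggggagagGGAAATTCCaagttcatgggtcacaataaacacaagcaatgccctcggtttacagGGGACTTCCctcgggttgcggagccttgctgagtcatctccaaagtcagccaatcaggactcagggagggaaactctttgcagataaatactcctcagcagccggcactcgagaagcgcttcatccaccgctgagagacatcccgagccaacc
Ccl1, chr11:82179763-82180062, minus strand: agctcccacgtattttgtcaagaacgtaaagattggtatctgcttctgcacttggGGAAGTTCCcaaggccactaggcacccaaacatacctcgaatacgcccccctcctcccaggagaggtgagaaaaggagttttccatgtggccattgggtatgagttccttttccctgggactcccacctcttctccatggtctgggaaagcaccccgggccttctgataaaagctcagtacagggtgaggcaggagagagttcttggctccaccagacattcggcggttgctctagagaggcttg
Cx3cl1, chr8:94771930-94772229, plus strand: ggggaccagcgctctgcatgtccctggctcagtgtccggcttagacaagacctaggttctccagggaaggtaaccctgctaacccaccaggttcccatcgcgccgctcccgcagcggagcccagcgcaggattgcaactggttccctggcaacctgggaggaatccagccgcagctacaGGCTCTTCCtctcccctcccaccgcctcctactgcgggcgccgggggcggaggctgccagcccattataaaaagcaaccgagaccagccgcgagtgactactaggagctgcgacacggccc
Cxcl1, chr5:90890995-90891294, plus strand: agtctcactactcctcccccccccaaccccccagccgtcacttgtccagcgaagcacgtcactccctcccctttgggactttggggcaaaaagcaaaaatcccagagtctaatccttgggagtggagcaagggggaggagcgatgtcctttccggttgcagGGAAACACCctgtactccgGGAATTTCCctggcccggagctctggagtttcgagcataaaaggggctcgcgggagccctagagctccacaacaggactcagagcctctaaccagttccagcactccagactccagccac

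Cxcl10 held kB matches that begin 158 and 103 bases upstream of the start site and an ISRE match that begins 212 bases upstream. Cxcl9 held kB matches at 130 and 42 bases upstream, Ccl1 a match at 195 bases and Cx3cl1 a match at 71 bases. Cxcl1 held kB matches at 89 and 70 bases upstream and had no read in any of the 4 libraries. Of the 10 higher members with a window, 6 held the kB motif in at least 1 window (Cxcl9, Cxcl10, Ccl1, Ccl9, Cx3cl1 and Ccr6), 2 the ISRE motif (Cxcl10 and Ccr1) and 1 both. The higher members Ccl22, Cx3cr1 and Xcr1 held neither motif in their windows. Of the 14 tested members that did not pass and had a window, 3 held the kB motif (Ccl25, Ccr3 and Ccrl2) and 0 the ISRE motif. Among members too low to test, Ccl12, Ccl19, Ccl20, Ccl21a, Cxcl1, Cxcl2 and Cxcl3 held the kB motif. Ccl8, Ccl17, Ccl21b, Ccl27b, Ccl28, Ccr1l1, Ccr8, Cxcl13, Cxcl14, Cxcl15, Cxcr1 and Xcl1, also untested, had windows without it. Ccl19, Ccl27b, Ccl28 and Cxcl14 of these untested members held the ISRE motif. Members differed in their number of windows, whereas the shares over the whole table are per window. A match is a run of letters and not a shown binding site.

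Both ligands that exist as membrane-bound chemokines rose. Cxcl16, the ligand of Cxcr6, lay at 10.5 and 6.80 CPM in caNIK libraries and at 0.519 and 0.426 CPM in control libraries, a log2 fold change of 4.18 ± 0.52 (edgeR adjusted p = 0.0026). Cx3cl1, or fractalkine, the ligand of Cx3cr1, lay at 17.3 and 10.3 CPM in caNIK libraries and at 2.07 and 1.11 CPM in control libraries, a log2 fold change of 3.12 ± 0.49 (edgeR adjusted p = 0.0063). Neither gene's groups overlapped, and in both caNIK replicate 1 was the higher caNIK library. Cx3cr1, known from monocytes and macrophages, also rose, with 22.3 and 19.9 CPM in caNIK libraries and 3.48 and 8.10 CPM in control libraries (1.86 ± 0.42, edgeR adjusted p = 0.023). The log2 fold change of Cx3cr1 was 1.78 without caNIK replicate 1 and 1.92 without caNIK replicate 2. It was 1.36 without control replicate 1 and 2.60 without control replicate 2. Its call was lost when either caNIK library was left out, in fits with 1 library in that group. Cxcr6, a receptor of resident T cells and NK cells, did not pass, with 7.25 and 1.40 CPM in caNIK libraries and 2.07 and 1.15 CPM in control libraries, groups that overlapped (1.42 ± 0.83, edgeR adjusted p = 0.27).

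Ccl1 and Ccl22, ligands known for attracting T helper type 2 and regulatory T cells, were nearly unread in controls. Ccl1, the ligand of Ccr8, had 89 and 41 reads in the caNIK libraries and 0 and 0 in the control libraries, so that caNIK HSPC had at least 47.1-fold more (against 3 counts over both control libraries; edgeR adjusted p = 0.0081). Ccl22, a ligand of Ccr4, had 33 and 30 reads in the caNIK libraries and 0 and 3 in the control libraries, a ratio of 22.8 with an exact 95% interval of 7.46 to 114 for counting error only (edgeR adjusted p = 0.030). The groups of both genes stood apart, though at low counts. Ccl22 lost its call without control replicate 1, without caNIK replicate 1 and without caNIK replicate 2, fits with 1 library in a group. Its log2 fold changes there were 3.57, 4.30 and 4.57, in that order. Ccl17, the other Ccr4 ligand, had 8 and 10 reads in the caNIK libraries and 4 and 3 in the control libraries and was too low to test. Ccl22, Cx3cl1 and Ccl17 are adjacent in the genome, with 0 genes between them. The receptors of these ligands were low in all libraries. Ccr4 lay at 0.698 and 0.337 CPM in caNIK libraries and 1.66 and 0.383 CPM in control libraries (edgeR adjusted p = 0.52), and Ccr8, with 9 and 6 reads in caNIK libraries and 4 and 7 in control libraries, was not tested. The list of eosinophil, basophil and mast cell markers had 5 members higher and 1 lower of 7 tested. Mcpt8, Cpa3, Mcpt4, Cma1 and Fcer1a were higher, Epx was lower and Prg2 did not pass. The list summed to 1570 and 853 CPM in caNIK libraries and 101 and 519 CPM in control libraries. Most of the sum in control replicate 2 was Prg2, at 357 CPM, and Epx, at 112 CPM. The part of these cells in the Ccl1 and Ccl22 levels was not tested.

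**Figure D2:**
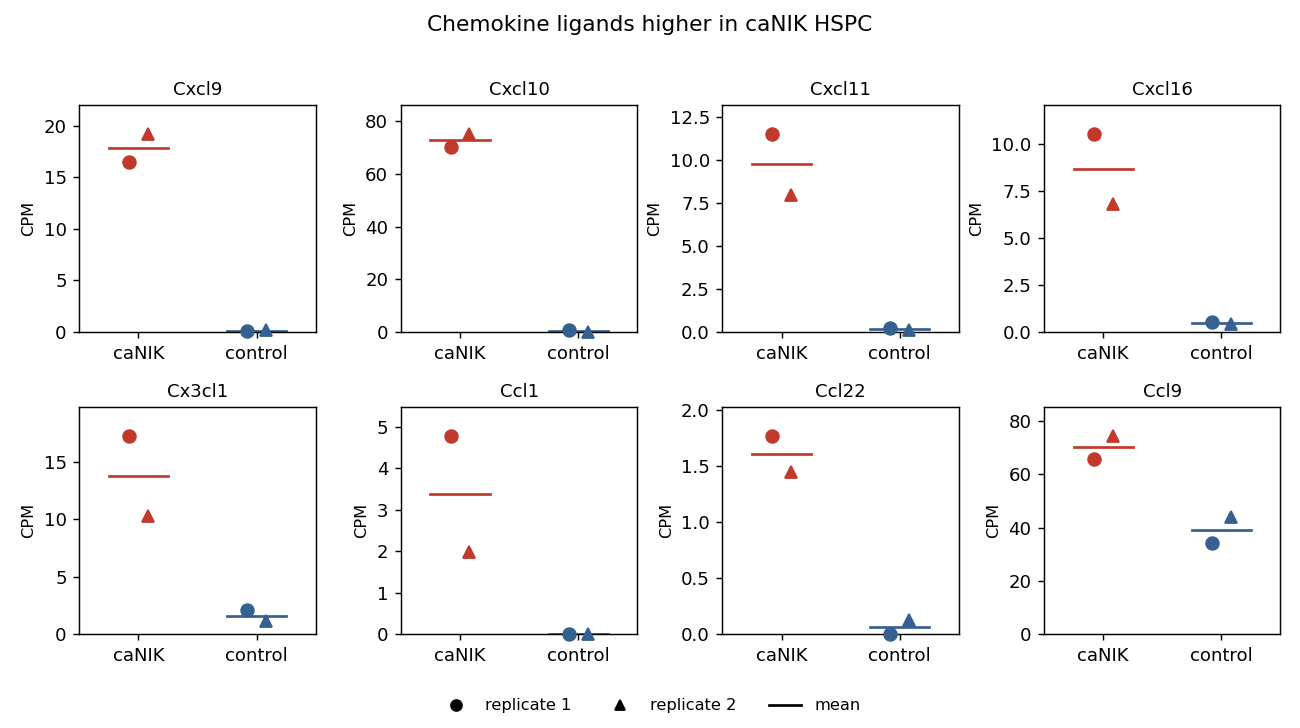
TMM-normalised CPM of the 8 ligands higher in caNIK HSPC, in the caNIK libraries (left) and the control libraries (right) of each panel, with circles for replicate 1, triangles for replicate 2 and lines for means. No panel has a control point at or above a caNIK point, and Ccl9 has the smallest log2 fold change of the 8, at 0.84.

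Among the inflammatory CC ligands, most of which bind Ccr1, Ccr2 or Ccr3, only Ccl9 passed in this fit. Ccl9, a mouse ligand of Ccr1 made by myeloid cells, lay at 65.9 and 74.5 CPM in caNIK libraries and at 34.2 and 44.1 CPM in control libraries, a log2 fold change of 0.84 ± 0.19 (edgeR adjusted p = 0.022). Its groups did not overlap, but its call was lost without control replicate 1 (log2 fold change 0.65) and without caNIK replicate 2 (0.73). Both fits have 1 library in a group. Ccl6, its close relative and genomic neighbour, lay at 2.95 and 3.91 CPM in caNIK libraries and 2.33 and 3.03 CPM in control libraries and did not pass (0.35 ± 0.48, edgeR adjusted p = 0.65). Ccl3, also a Ccr1 ligand, had values of 2.74 and 0.434 CPM in caNIK libraries that enclosed those of controls, 1.30 and 2.39 CPM (edgeR adjusted p = 0.89). For Ccl4, made by activated immune cells, the caNIK values of 0.537 and 0.530 CPM lay below the control values of 2.39 and 1.41 CPM without passing (-1.81 ± 0.68, edgeR adjusted p = 0.11). Ccl5, made by T cells and NK cells, was uneven among controls, with 25.3 and 16.1 CPM in caNIK libraries and 19 and 2.98 CPM in control libraries. It did not pass (0.92 ± 0.74, edgeR adjusted p = 0.43), and lay at 2.77 on the log2 scale without control replicate 1 and at 0.12 without control replicate 2. The other inflammatory CC ligands were at 12 reads or fewer in every library. Ccl2 had 5 and 8 reads in the caNIK libraries and 0 and 0 in the control libraries, Ccl7 had 1 and 12 against 0 and 0, and Ccl11, Ccl24 and Ccl26 were listed at 0 throughout.

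Summed T cell and NK cell markers were higher in replicate 1 of each group, though Klrb1c, an NK cell marker, had 0 and 7 reads in the control libraries. The 7 tested T cell markers had 0 past the threshold and summed to 195 and 78.1 CPM in caNIK libraries and 121 and 58.4 CPM in control libraries. NK cell markers had 1 of 6 higher, Ncr1, and summed to 51.2 and 15.5 CPM in caNIK libraries and 14.9 and 4.22 CPM in control libraries, with Klra4 and Klra8 listed at 0. Replicate 1 was also the higher library of each group for Ccl5, Cxcr3 and Cxcr6. That order was not particular to them. Other members such as Cx3cl1, Cxcl11, Cxcl16, Ccl25, Ccr4, Ccr6, Ccr7 and Cxcr4 had it too. The part of T cells and NK cells in the values of Ccl5, Cxcr3 and Cxcr6 was not tested.

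None of the homing ligands that non-canonical NF-kB is known to drive in lymphoid stroma passed the test with all 4 libraries, and most were too low to test. Cxcl12, the stem cell retention factor, lay at 5.21 and 17.7 CPM in caNIK libraries and at 1.30 and 30.3 CPM in control libraries, so that the controls enclosed the caNIK values (-0.46 ± 1.17, edgeR adjusted p = 0.82). Its direction changed with the libraries used. The log2 fold change of Cxcl12 was 3.14 without control replicate 2 and -1.41 without control replicate 1. Without caNIK replicate 1 it was 0.16 and without caNIK replicate 2 it was -1.62. Col1a1, a collagen gene of stroma, was also uneven in controls, at 105 and 62.7 CPM in caNIK libraries and 2.02 and 63.7 CPM in control libraries. In caNIK libraries, however, Col1a1 was higher in replicate 1 and Cxcl12 in replicate 2. Of the other endothelium or stroma markers, Col1a2, Vwf and Cdh5 were also lower in control replicate 1. Pdgfrb, Pecam1, Lepr and Pdgfra were close in the control libraries. The 8 markers of endothelium or stroma had 0 past the threshold and summed to 323 and 191 CPM in caNIK libraries and 167 and 281 CPM in control libraries, and their part in the Cxcl12 values was not tested. Cxcl13, the B cell attractant that binds Cxcr5, had 0 and 10 reads in the caNIK libraries and 0 and 0 in the control libraries. Ccl19, a ligand of Ccr7, had 1 read, in caNIK replicate 1. Ccl21a, Ccl21b and Ccl21c, near-identical copies, were listed at 0 in all libraries, which leaves their expression unknown, since the sources used here do not say how reads matching more than 1 place were counted.

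Of the remaining ligands, Ccl25, made by thymic epithelium and bound by Ccr9, lay at 3.60 and 3.37 CPM in caNIK libraries and 7.0 and 3.45 CPM in control libraries and did not pass (-0.58 ± 0.49, edgeR adjusted p = 0.45). Of 6 tested thymic epithelium markers, 2 were higher, Aire and Ly75. Their list summed to 815 and 586 CPM in caNIK libraries and 92.9 and 29.1 CPM in control libraries, nearly all of it Aire in caNIK, and Krt5 was listed at 0. Ccl27a, a skin chemokine bound by Ccr10, lay at 3.44 and 4.39 CPM in caNIK libraries and at 2.28 and 2.39 CPM in control libraries (0.74 ± 0.47, edgeR adjusted p = 0.31). Its copy Ccl27b, and Ccl28, the other Ccr10 ligand, were listed at 0. For Ccl27b this leaves its expression unknown, as for the Ccl21 copies. The neutrophil-attracting CXC ligands of Cxcr2 that fall under the symbol rule were close to absent from the counts. Cxcl5 had 9 and 17 reads in the caNIK libraries and 0 and 5 in the control libraries, Cxcl3 had 9 and 9 against 0 and 0, and Cxcl2 had 1 and 7 against 0 and 2. Ppbp, a Cxcr2 ligand outside the rule, just passed as higher (1.79 ± 0.51, edgeR adjusted p = 0.049). Its levels were 5.58 and 4.15 CPM in caNIK libraries and 1.14 and 1.66 CPM in control libraries. Xcl1, the ligand of Xcr1, had 8 and 10 reads in the caNIK libraries and 1 and 1 in the control libraries, a ratio of 9.77 with an exact 95% interval of 2.34 to 86.9. Cxcl14 followed the replicate number, with 0 and 8 reads in the caNIK libraries and 0 and 17 in the control libraries. In all, 24 ligands were too low to test. Of these, 11 had no read, and the other 13 reached at most 17 reads in a library.

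**Figure D3:**
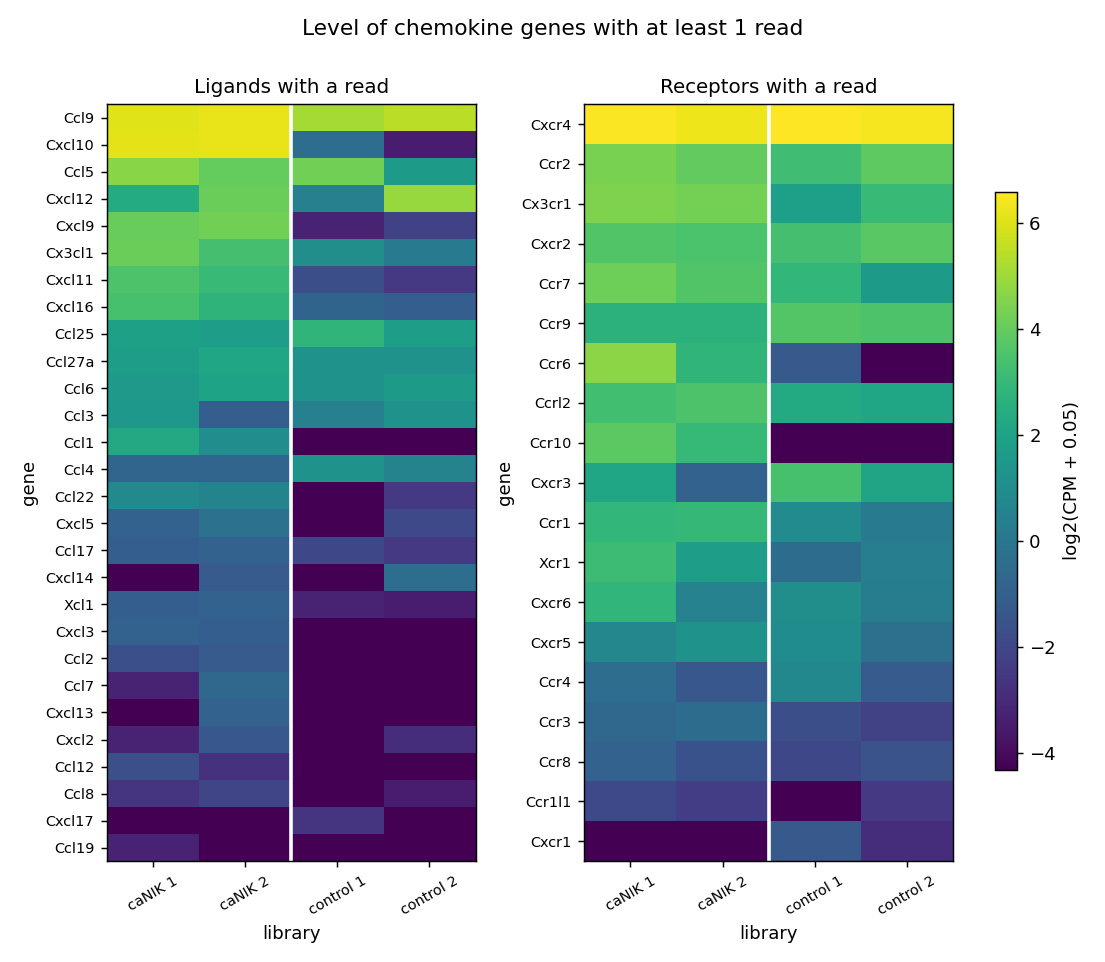
Level of the 28 ligands and of 19 receptors with at least 1 read, as log2(CPM + 0.05), with the caNIK libraries left and the control libraries right of the white line and genes in order of mean CPM. Ccl1 and Ccr10 are dark in both control libraries only, Cxcl12 and Ccl5 differ between the controls, and Cxcr4 is alike in all 4 libraries.

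Among receptors, Ccr10 and Ccr6 showed the sharpest contrast. Ccr10, known from skin-homing T cells and plasma cells, had 269 and 162 reads in the caNIK libraries and 0 and 0 in the control libraries, so that caNIK HSPC had at least 156-fold more, by the same bound (edgeR adjusted p = 0.0015). Ccr6, a receptor of B cells, T helper 17 cells and dendritic cells, lay at 25.7 and 6.94 CPM in caNIK libraries and at 0.363 and 0 CPM in control libraries, a log2 fold change of 6.55 ± 1.15 (edgeR adjusted p = 0.0094). The groups of both genes stood far apart, and in both caNIK replicate 1 was the higher library. The log2 fold change of Ccr6 was 5.29 without caNIK replicate 1, 7.18 without caNIK replicate 2 and 5.47 without control replicate 2, while without control replicate 1 no control read was left. Ccl20, the ligand of Ccr6, was listed at 0 in all 4 libraries. Mature B cell markers had 2 higher and 1 lower of 8 tested, summing to 99.7 and 57.5 CPM in caNIK libraries and 68.9 and 50.3 CPM in control libraries. Cd22 and Cr2 rose and Pax5 fell. The part of B cells in the Ccr6 level was not tested.

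Ccr1, a receptor of inflammatory CC ligands on myeloid cells, rose with close replicates. It lay at 7.52 and 7.62 CPM in caNIK libraries and at 1.87 and 1.11 CPM in control libraries, a log2 fold change of 2.35 ± 0.47 (edgeR adjusted p = 0.015). Its neighbour in the genome, Xcr1, the receptor that marks cross-presenting dendritic cells, lay at 8.75 and 3.33 CPM in caNIK libraries and at 0.674 and 1.24 CPM in control libraries (2.64 ± 0.67, edgeR adjusted p = 0.033). Neither gene's groups overlapped, but Xcr1 did not pass in limma-voom (adjusted p = 0.060). Its call was also lost without caNIK replicate 1 (log2 fold change 1.79), a fit with 1 library in that group. Of 7 tested dendritic cell markers, Xcr1 itself, Zbtb46, Itgax and Batf3 were higher and Flt3 was lower. Clec9a, which is found with Xcr1 in dendritic cells, did not pass, with 3.71 and 2.31 CPM in caNIK libraries and 0.104 and 1.83 CPM in control libraries (edgeR adjusted p = 0.33). The list summed to 188 and 114 CPM in caNIK libraries and 606 and 490 CPM in control libraries, most of it Flt3, which progenitors also express. The part of dendritic cells in the Xcr1 level was not tested.

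**Figure D4:**
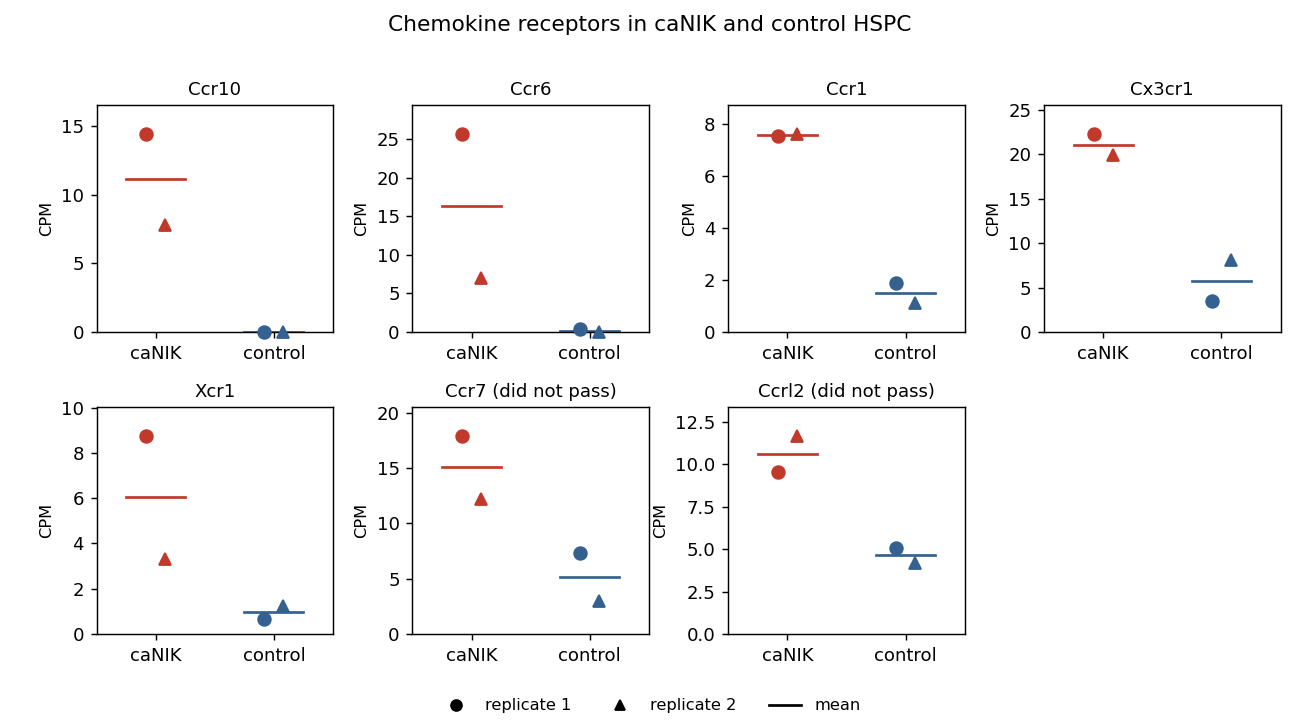
TMM-normalised CPM of the 5 receptors higher in caNIK HSPC and of Ccr7 and Ccrl2, which did not pass, with the caNIK libraries left and the control libraries right in each panel. Circles are replicate 1, triangles replicate 2 and lines means. Every caNIK point lies above every control point in the 7 panels, with the caNIK points of Ccr6 at 25.7 and 6.94 CPM.

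Ccr7 and Ccrl2 lay above controls in both caNIK libraries without passing in edgeR, and passed in DESeq2. Ccr7, which takes cells to lymph nodes, lay at 17.9 and 12.2 CPM in caNIK libraries and at 7.37 and 2.98 CPM in control libraries (1.55 ± 0.49, edgeR adjusted p = 0.066; 0.016 in DESeq2). Ccrl2, an atypical receptor that binds chemerin and is not known to signal, lay at 9.56 and 11.7 CPM in caNIK libraries and at 5.08 and 4.18 CPM in control libraries (1.20 ± 0.35, edgeR adjusted p = 0.052; 0.018 in DESeq2). Both were on the edge of the threshold, and the log2 fold change of Ccr7 was 2.31 without control replicate 1 and 1.03 without control replicate 2. Ccr7 and Ccrl2 passed in limma-voom as well (adjusted p = 0.041 and 0.045). Ccr9, the gut- and thymus-homing receptor, was on the same edge in the other direction, at 6.39 and 6.32 CPM in caNIK libraries and 12.8 and 11.6 CPM in control libraries (-0.94 ± 0.30, edgeR adjusted p = 0.070; 0.044 in DESeq2).

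Cxcr4, the receptor of Cxcl12 that keeps stem cells in the marrow, was level across libraries. It lay at 91.9 and 80.0 CPM in caNIK libraries and at 95.6 and 87.6 CPM in control libraries, and its log2 fold change of -0.09 ± 0.16 was smaller than its standard error (edgeR adjusted p = 0.73). Cxcr2, a neutrophil receptor, lay at 12.4 and 11.3 CPM in caNIK libraries and at 10.4 and 13.9 CPM in control libraries (-0.04 ± 0.29, edgeR adjusted p = 0.94). The groups of both genes overlapped. Of 8 neutrophil markers, 6 rose and Elane fell, with a summed level of 245 and 356 CPM in caNIK libraries and 54.9 and 155 CPM in control libraries. Ccr2, the receptor that brings monocytes out of the marrow, lay at 21.1 and 15.6 CPM in caNIK libraries and at 9.28 and 14.9 CPM in control libraries and did not pass (0.60 ± 0.33, edgeR adjusted p = 0.24). Monocyte and macrophage markers had 0 of 7 past the threshold and summed to 88.7 and 128 CPM in caNIK libraries and 40.4 and 82.2 CPM in control libraries. Their part in the levels of Cx3cr1 and Ccr1 was not tested. Cxcr5, the B cell follicle receptor, lay at 1.61 and 2.41 CPM in caNIK libraries and at 1.92 and 0.767 CPM in control libraries (edgeR adjusted p = 0.59), and Ccr3, the eosinophil receptor, at 0.591 and 0.675 CPM in caNIK libraries and 0.259 and 0.170 CPM in control libraries (edgeR adjusted p = 0.24). Of the receptors, 3 were too low to test, Ccr8, Cxcr1 and Ccr1l1, and Cxcr1 had reads in controls alone, 0 and 0 in the caNIK libraries against 7 and 2.

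Genes that act with chemokines but fall outside the symbol rule changed in both directions. Of 32 tested partners, a list of further chemokines, atypical receptors, the protease Dpp4 and signalling parts, 10 were higher and 5 lower. Over all tested genes 13.8% were higher and 8.21% lower, shares that also stand beside the counts of cell type markers. No comparison with them is drawn here either. Some partners and markers, such as Ackr1 and Ncr1, met the filter on low counts in both caNIK libraries and in neither control library. Ackr1, the atypical receptor of erythroid cells and endothelium that binds many chemokines without signalling, lay at 59.2 and 57.2 CPM in caNIK libraries and at 0 and 0.383 CPM in control libraries (8.09 ± 0.63, edgeR adjusted p = 0.00049; 7.20 without control replicate 1). Erythroid markers moved with it. Of 6 tested, 4 were higher, and the list summed to 965 and 1670 CPM in caNIK libraries and 79.6 and 217 CPM in control libraries, with Hbb-b1 and Hba-a1 listed at 0. Their part in the Ackr1 level was not tested. Rgs1, which shortens G protein signalling downstream of chemokine receptors, lay at 108 and 75.7 CPM in caNIK libraries and at 11.6 and 15.8 CPM in control libraries (2.74 ± 0.25, edgeR adjusted p = 0.00086). Dpp4, the surface protease that clips Cxcl12 and other chemokines, lay at 273 and 146 CPM in caNIK libraries and at 55.5 and 41.8 CPM in control libraries (2.11 ± 0.32, edgeR adjusted p = 0.0053).

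Signalling parts inside the cell changed in both directions. Arrb1, Arrb2, Grk5, Rac2 and Prex1 were higher, as was Rgs1, while Rasgrp2, Pik3cg, Plcb2, Elmo1 and Vav1 were lower. The 3 with the smallest p among those that fell are given here. Rasgrp2, the exchange factor that turns on Rap1 and integrins, lay at 41.1 and 20.3 CPM in caNIK libraries and at 128 and 131 CPM in control libraries (-2.08 ± 0.32, edgeR adjusted p = 0.0059; -2.67 without caNIK replicate 1). Pik3cg, the lipid kinase activated by G proteins, lay at 91.2 and 62.5 CPM in caNIK libraries and at 175 and 160 CPM in control libraries (-1.13 ± 0.21, edgeR adjusted p = 0.012). Plcb2, a phospholipase of the same pathway, lay at 88.1 and 45.3 CPM in caNIK libraries and at 177 and 202 CPM in control libraries (-1.51 ± 0.31, edgeR adjusted p = 0.016). No groups overlapped in these 3 genes, and caNIK replicate 2 was the lower caNIK library in each. Ackr3, the second Cxcl12 receptor, once named Cxcr7 and therefore outside both the rule and the list, was looked up after the other values were seen. It had 15 and 13 reads in the caNIK libraries and 3 and 5 in the control libraries and did not pass (edgeR adjusted p = 0.16).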

How the data were processed

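RNA-seq was made from sorted HSPC, 2 caNIK and 2 control libraries, grouped by sample title. Per the file headers, the authors deposited raw read counts, with 1 table per library and 1 row per gene symbol. Tools named in the submitters' processing notes, with no role or order, are DESeq2 1.10.1, featureCounts 1.5.0, TopHat2 2.1.0 and FastQC, and the build named is mm9. The sources used here do not give the strand setting, the annotation or how reads with more than 1 match were counted. Reads of near-identical or overlapping genes cannot be told apart.

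The main test was edgeR 4.0.16 under R 4.3.3 (filterByExpr, TMM, glmQLFit with group as the only term, two-sided glmQLFTest). Benjamini-Hochberg adjustment ran over all 14191 tested genes and the threshold was 0.05. Standard errors (SE) come from the F statistic. The test was tried on simulated counts first. Folds against no control read use 3 counts over the group, and ratios at 1 to 3 counts have exact 95% intervals; both cover counting error only. Whether each library is from its own animal is not in the labels, and the spread behind the p-values is that between these libraries, possibly technical. The libraries of a group differed by more than sampling noise, with a chi-square over its degrees of freedom of 42.4 for caNIK and 23.5 for control.

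Members and lists were chosen with earlier results of these data known. Named were members past the threshold or at a mean of 5 CPM or more in a group, untested members with at least 10 reads in a library, and the 3 partners with the smallest p in each direction; further genes were picked with their values in view. Of the tested receptors, 1 counts in the totals and is not reported here. Of 38 partner symbols, 33 were in the files, since 5 are other names of listed genes; Adgre1, Trac and Siglecf, of the 10 cell type marker lists and the stem cell list, were also not found, Adgre1 being listed as Emr1. Gene neighbours and biotypes come from RefSeq's GRCm38.p6 gene table, in which 59 of 59 members were found; it was used for names, biotypes and gene order. Promoter coordinates are those of GRCm38.p6 and were not set against the counts' build. Alternatives were DESeq2 1.42.0, limma-voom (limma 3.58.1), other scalings and filters, the replicate number as a block, and each library left out in turn. A fit with a library left out has 1 library in a group. Its p-values hold no spread within that group and do not stand beside those of the main test.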

Additional observations from a re-analysis of the deposited data

How the results depend on the processing

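All 8 higher ligands kept their call under the other scalings and filters, DESeq2, limma-voom and the replicate block, and so did all 5 higher receptors except Xcr1 in limma-voom. With a library left out, each of these members kept a positive log2 fold change, the smallest being 0.65, for Ccl9 without control replicate 1. Ccl22, Ccl9, Cx3cr1 and Xcr1 lost their call in at least 1 of those fits. Ccl5, Ccr7, Cxcl12 and Cxcr3, not called in the main test, were called in some of them, Cxcl12 in both directions and Cxcr3 as lower. Receptor calls numbered 8 without the filter on low counts, 9 in DESeq2 and 10 with the replicate block, against 5; the cause was not tested. The added genes included Ccr7 and Ccrl2, with Ccr9 in DESeq2 and Ccr9 and Cxcr3 under the block, where Cxcr3 lay at -2.05 (adjusted p = 0.025). The block changed no other call among the members reported. Same-numbered samples deviated together, at a correlation of 0.213 over all tested genes and 0.381 over the tested members. The labels name nothing that a number stands for, and 2 pairs do not settle whether the numbers pair the samples. Cxcl12 reversed in limma-voom (0.47) and under the replicate block (0.39), and ran from -1.62 to 3.14 when a library was left out, being 0.16 without caNIK replicate 1. Cxcr2 ran from -0.25 to 0.18 when a library was left out, being 0.003 without caNIK replicate 2. Calls over all genes ran from 2604 to 4260, the highest being with the block, against 3129. Library totals moved the median of all genes by no more than 0.1. With 2 libraries a group and members at a few reads, changes of low genes such as Ccl17, Cxcl3 and Cxcl5 could not be tested.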
